A study of Mus musculus with 12 samples.

Results

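Collagens, the matrix metalloproteinases that cut matrix proteins, the TIMP inhibitors of these enzymes and the lysyl oxidases that crosslink collagen were followed in mouse liver RNA across 3 genotypes. Members were all genes of the count table annotated as protein-coding whose symbols carry the collagen chain (Col), Mmp, Timp or Lox names. This gave 76 of the 56748 genes in the table, namely 44 collagen chains, 23 metalloproteinases, 4 inhibitors and 5 lysyl oxidases. The livers came from C57BL6 mice fasted for 24 h. In the Cpt2 liver-specific single KOs (SKO, n = 4), Cpt2, which carries long-chain fatty acids into mitochondrial oxidation, was deleted by a Cre driven by the albumin promoter, which is active in hepatocytes. In the double KOs (DKO, n = 4), the stress-induced transcription factor Atf3 was deleted together with Cpt2 by the same Cre. The controls (WT, n = 4) carried floxed Cpt1a, Cpt1b and Cpt2 by their labels, whereas the labels of the KOs name only the genes deleted. Whether the WT mice carried Cre and the age of the animals are not given in the sources used here. Nothing states that the 4 livers of a genotype came from separate litters, so p-values measure the spread between these livers only.

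Collagens are secreted as triple-helical proteins. The fibrillar chains of types I, III and V form the fibrils of scars, type IV forms the sheet of basement membranes, and the FACIT collagens sit on fibril surfaces. In healthy liver the fibrillar chains are made mainly by stellate cells and portal fibroblasts and rise when stellate cells become myofibroblasts. Metalloproteinases are made as inactive precursors, and their activity is set by cleavage and by TIMPs, so the RNA of an enzyme is not a measure of its activity.

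Between 14710304 and 20030055 reads were counted per liver. Cpt2 averaged 234 ± 24.4 CPM in WT (counts scaled to library size by TMM, SD, n = 4), against 127 ± 22.7 for SKO and 117 ± 11.8 for DKO, and whole-gene counts include reads from exons that are not deleted. Atf3 averaged 1.55 ± 0.489, 30.7 ± 16.8 and 8.12 ± 5.71 CPM in the same order, and DKO replicate 4 held 5 Atf3 counts where the other DKO livers held 164 to 265. SKO replicate 3 and DKO replicate 4 had 18063 and 20855 counts of Xist, the RNA of the inactive X chromosome, against 1 to 19 in the other 10 livers, although the study describes the mice as male. All WT livers were among those 10, so by Xist the KO groups were mixed and the WT group was not. The study reports sex-dependent effects of Atf3 on ApoA4, and the part of sex in the members' values was not tested. DKO replicate 4 also stood apart from the rest of its genotype (chi-square per degree of freedom 194 to 231, against 27.7 to 33.3 among the other DKO livers). For members, DKO results are also given without this liver. Summed hepatocyte markers were 40258 to 93617 CPM in the 12 livers and highest in DKO replicate 4.

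Levels are ordered here as CPM per kb of the gene length in the table. Col18a1, whose chain forms collagen XVIII of basement membranes and releases endostatin, was far above every other member in WT livers at 148 ± 11.2 CPM per kb. Mmp19, a secreted metalloproteinase, followed at 14.8 ± 0.597. Mmp14 and Mmp15, which are both anchored in the cell membrane, stood at 7.53 ± 0.470 and 7.40 ± 0.826, so these neighbours did not differ beyond their spread. The basement membrane chains Col4a2 and Col4a1 were at 4.77 ± 1.27 and 4.24 ± 1.40, with the fibrillar chain Col5a3 between them at 4.42 ± 0.966, and these 3 overlapped as well. Col1a1, Col1a2 and Col3a1, the main chains of scar fibrils, were low at 0.429 ± 0.170, 0.631 ± 0.112 and 0.959 ± 0.242. Of the 76 members, 13 reached 1 CPM per kb in WT. Another 7 had no counts in any liver, namely Col11a1, Col19a1, Col26a1, Mmp10, Mmp1a, Mmp1b and Mmp20. A count of 0 allows up to 3 counts in a liver, or 0.145 to 0.195 CPM, and such limits cover counting error only. After the filter on low counts 41 members were tested in at least one comparison and 35 in none.

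**Figure D1:**
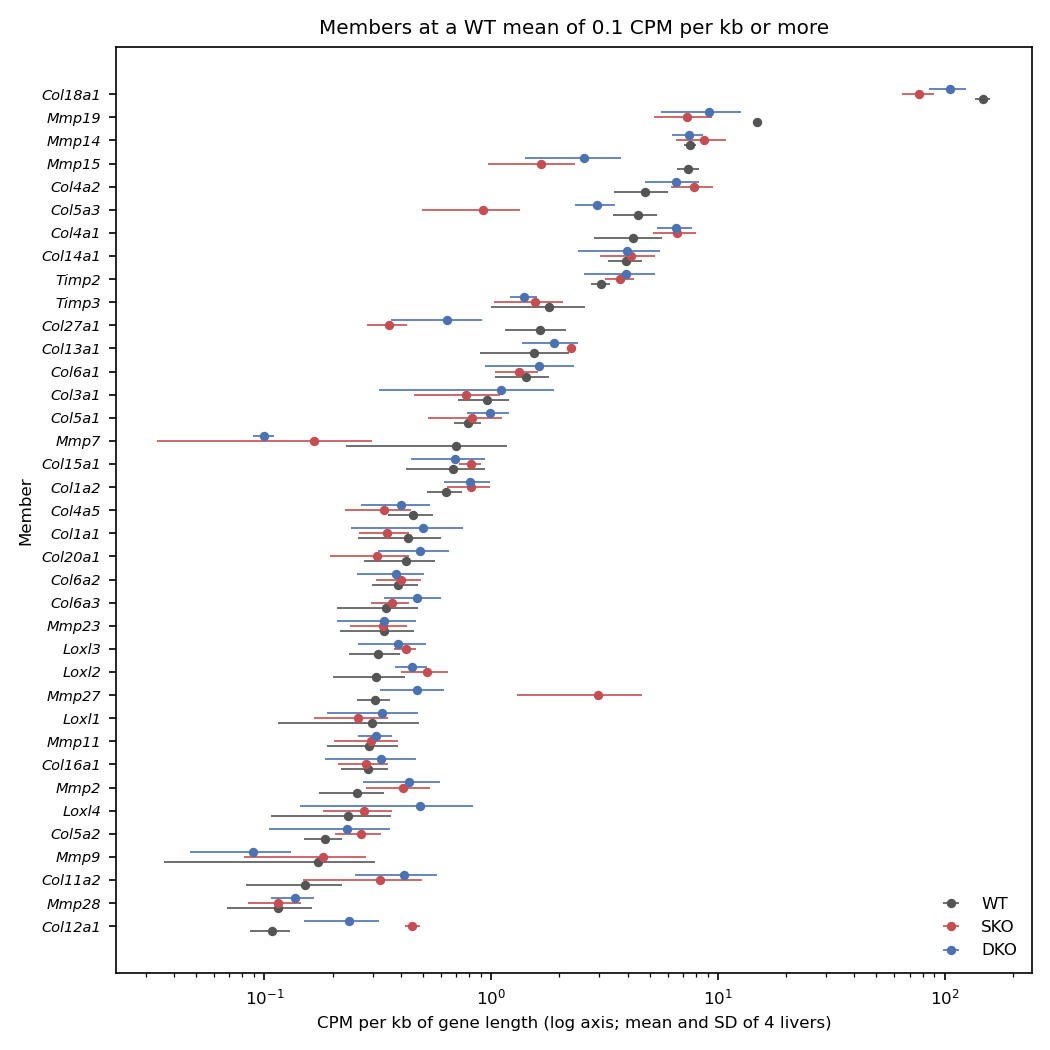
Mean CPM per kb of gene length (log axis, error bars SD, n = 4 livers) of the 37 members at 0.1 or more in WT, with WT in grey, SKO in red and DKO in blue. Col18a1 stands alone at the top, and Mmp27 and Col12a1 are the members whose SKO points lie farthest to the right of WT.

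The SKO livers were compared with WT livers to ask what the loss of hepatic fatty acid oxidation changes in a fast. Of 38 members tested, 3 were higher and 5 lower at an adjusted p-value under 0.05 (edgeR quasi-likelihood test, Benjamini-Hochberg over all genes). Over all 14261 genes tested, 16.7% were higher and 15.4% lower, or 32.1% together, and the members' share was 21.1%, under that background. At an unadjusted p-value under 0.05, 11 members passed, against 42.0% of all genes. The median log2 fold change of the members was 0.06, against 0.03 for all genes tested. Mmp27, Col12a1 and Col4a2 rose, and Col5a3, Col27a1, Mmp15, Mmp19 and Col18a1 fell. Of the 38 members, 2 were higher and 5 lower without overlap of the SKO and WT livers, against 17.2% (higher) and 16.1% (lower), or 33.2%, of all genes.

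**Figure D2:**
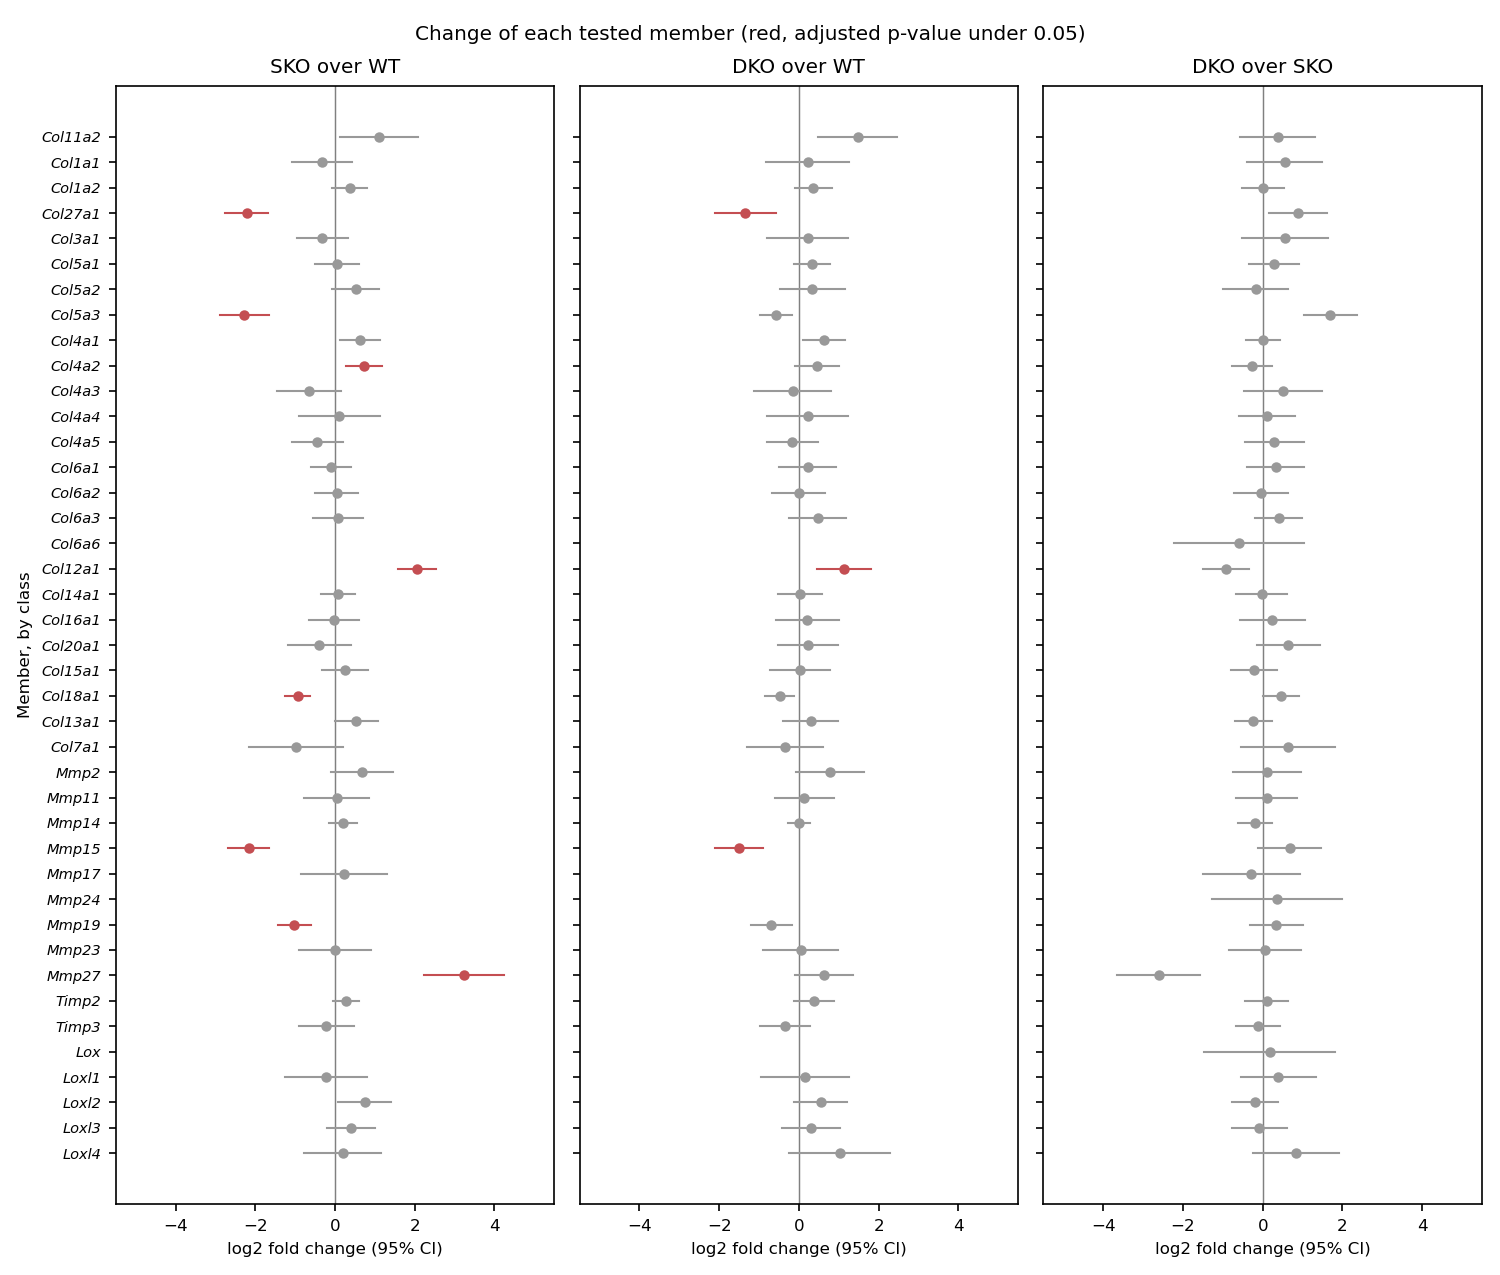
Log2 fold change with its 95% CI for each of the 41 tested members, grouped by class, in SKO over WT, DKO over WT and DKO over SKO (a gap means that the member was not tested there). Red marks an adjusted p-value under 0.05, and there are 8 such members in SKO over WT, 3 in DKO over WT and 0 in DKO over SKO.

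Among the 24 collagens tested, Col12a1 rose most. It encodes a FACIT chain that binds the surface of collagen I fibrils, and it lies at chr9:79506273-79626113 on the minus strand (coordinates as in the count table, which names no build and differs from GRCm38 for most genes). Its levels in WT replicates 1 to 4 were 1.25, 1.84, 1.50 and 1.98 CPM, those of SKO were 6.17, 6.80, 7.07 and 7.35, and those of DKO were 2.85, 3.86, 5.29 and 2.34. The SKO livers lay close together and above every other liver, and the DKO livers lay between the other genotypes without overlapping either. The increase in SKO was 4.16-fold (log2 2.06, SE 0.215, adjusted p = 3.88e-05). The other FACIT chains that were tested (Col14a1, Col16a1 and Col20a1) had log2 fold changes of -0.40 to 0.07 and none passed.

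Col4a2 and Col4a1 encode the chains that make up the common type IV collagen of basement membranes. The genes lie head to head on chromosome 8 (Col4a1 at chr8:11248423-11362826 on the minus strand, Col4a2 at chr8:11362805-11499287 on the plus strand), so that their starts overlap by some bases. Col4a2 was at 37.7, 39.9, 23.1 and 25.7 CPM in WT livers, at 60.8, 36.1, 55.9 and 55.9 in SKO livers, and at 49.3, 50.2, 46.6 and 26.0 in DKO livers. SKO replicate 2 fell among the WT livers, and DKO replicate 4 lay well under the other DKO livers. Col4a2 rose 1.65-fold in SKO (log2 0.72, SE 0.208, adjusted p = 0.0207). Col4a1 was at 44.5, 35.7, 24.8 and 21.6 CPM in WT livers, at 54.6, 34.0, 57.7 and 50.0 in SKO livers, and at 50.5, 52.1, 56.1 and 36.5 in DKO livers. Its change in SKO had the same direction and missed the threshold (log2 0.63, 95% CI 0.12 to 1.14, adjusted p = 0.0599). Col4a1 passed with DESeq2 (adjusted p = 0.0462). In edgeR it passed without a filter on low counts (0.00939), with the replicate number as a block (0.0493), without WT replicate 1 (0.0206) and without SKO replicate 2 (0.0280). Per kb, the ratio of Col4a1 to Col4a2 ran from 0.746 to 1.05 in WT, against 0.792 to 0.916 for SKO and 0.909 to 1.25 for DKO. Whether the counting used strand is not given in the sources used here, and reads at the shared start cannot be told apart. The call of Col4a2 was lost when WT replicate 3, WT replicate 4 or SKO replicate 1 was left out (range of adjusted p over all single livers left out 0.00705 to 0.0689).

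The collagens that fell were Col5a3, Col27a1 and Col18a1. Col5a3 encodes a minor chain of the fibril-regulating collagen V (chr9:20681346-20726363, minus strand). It was at 28.2, 39.9, 26.2 and 26.2 CPM in WT livers, at 10.4, 3.68, 5.77 and 5.16 in SKO livers, and at 15.8, 24.1, 22.8 and 17.3 in DKO livers. The 3 genotypes did not overlap, with SKO lowest and DKO in the middle. In SKO livers Col5a3 fell to 0.206 of the WT level (log2 -2.28, SE 0.281, adjusted p = 0.000119). Its partner chains Col5a1 and Col5a2 were tested too and did not pass (log2 0.05 and 0.52).

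Col27a1, a fibrillar chain best known from cartilage (chr4:63132241-63253228, plus strand), was at 13.5, 18.9, 27.4 and 25.9 CPM in WT livers, at 5.39, 5.42, 3.69 and 3.93 in SKO livers, and at 6.27, 4.29, 11.3 and 11.4 in DKO livers. Every KO liver of either genotype was under every WT liver. The SKO level was 0.215 of WT (log2 -2.22, SE 0.244, adjusted p = 5.30e-05). Col18a1 (chr10:76888012-77002382, minus strand) was at 968, 1149, 1004 and 1029 CPM in WT livers, at 650.5, 514, 562 and 446 in SKO livers, and at 699, 735, 595 and 922 in DKO livers. All SKO livers were under all WT livers, and DKO replicate 4 came nearest to WT. The fall in SKO was to 0.522 of WT (log2 -0.94, SE 0.145, adjusted p = 0.000529). By counts, not scaled to gene length, Col18a1 alone took 81.3 to 84.3% of all collagen counts in WT, but 68.1 to 74.8% for SKO and 69.7 to 79.8% for DKO. A gene on the opposite strand, Slc19a1, overlaps Col18a1, but it held 5039 counts in the 12 livers against 165269.

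Levels of cell type markers also differed in these livers. Of 8 hepatocyte markers tested, 3 were lower (Alb, Ttr and Serpina1a) and 0 higher in SKO, against 15.4% of all genes lower, and their summed level was 73864 to 91989 CPM in WT against 40258 to 70201 in SKO livers. Of the bile duct markers, 2 of 4 tested (Sox9 and Spp1) were lower, and the list's sum was 28.6 to 34.1 CPM in WT and 7.92 to 14.7 in SKO livers. The defining bile duct keratin Krt19 did not pass (log2 -1.95, adjusted p = 0.0597), and Krt7 had too few counts to be tested. In whole liver, fewer cells of a type and less RNA per cell cannot be told apart, and the part of these markers in the collagen values was not tested.

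**Figure D3:**
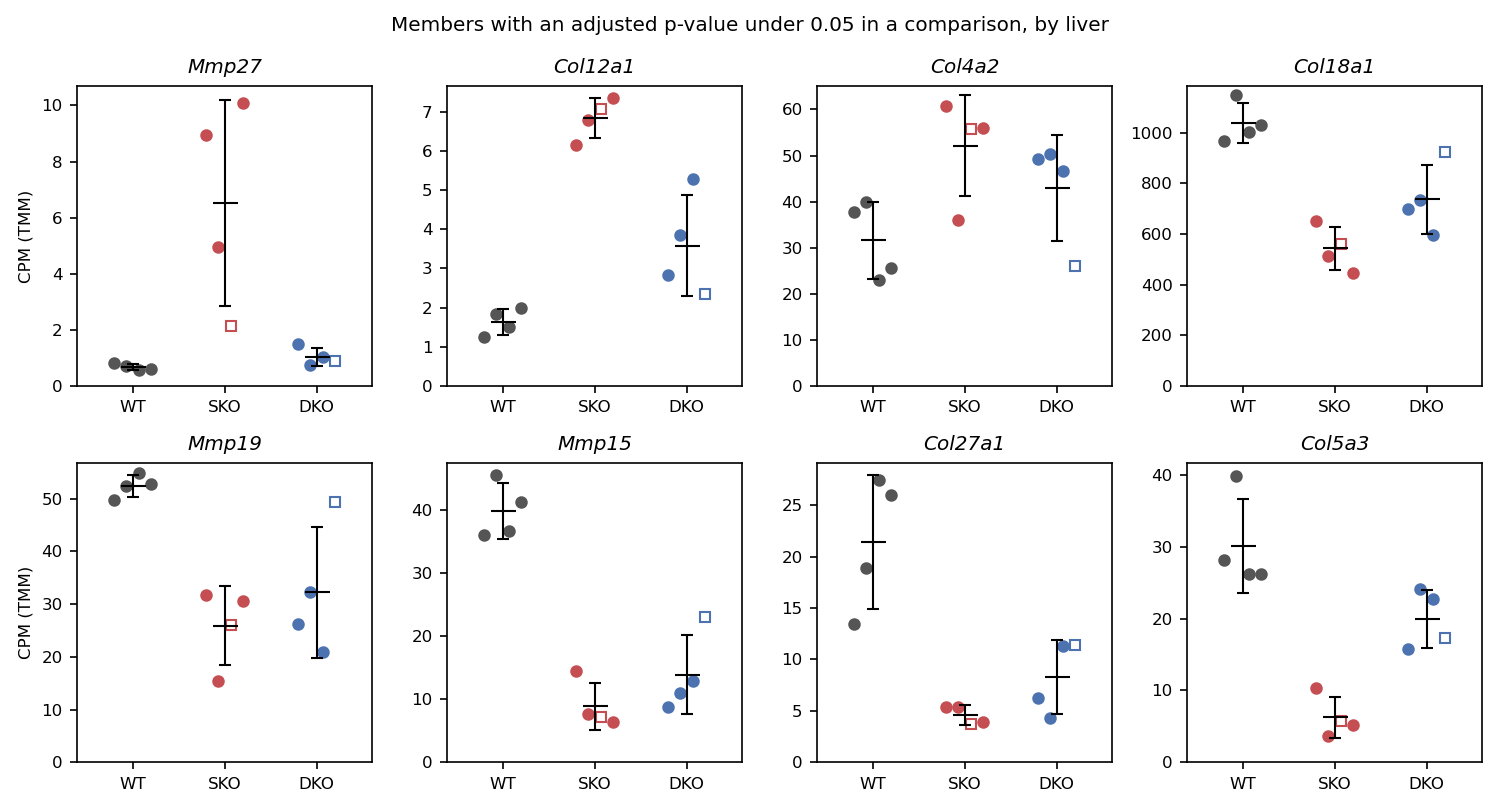
CPM in each liver for the 8 members with an adjusted p-value under 0.05 in any comparison (points are livers, black bars the mean and SD of 4 livers, open squares the livers with Xist counts, SKO replicate 3 and DKO replicate 4). DKO replicate 4 lies nearer to WT than the other DKO livers for Col4a2, Col12a1, Col18a1, Mmp19 and Mmp15.

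Mmp27 showed the largest change of the 38 members tested in SKO over WT. It encodes a little-studied metalloproteinase related in sequence to the stromelysins (chr9:7571397-7581886, plus strand). WT livers had 0.832, 0.696, 0.585 and 0.605 CPM (9 to 16 counts), SKO livers 8.96, 4.96, 2.13 and 10.1 CPM (41 to 180 counts), and DKO livers 1.50, 0.735, 1.02 and 0.905 CPM (12 to 31 counts). Every SKO liver was above every other liver, with SKO replicate 3 the lowest of them, and the DKO livers overlapped WT. The rise in SKO was 9.44-fold (log2 3.24, SE 0.462, 95% CI 2.23 to 4.25, adjusted p = 0.000300). Without SKO replicate 3 the log2 fold change was 3.54 (adjusted p = 1.70e-05).

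Mmp27 is part of a cluster of 10 metalloproteinase genes that spans 427 kb of chromosome 9 and holds the collagenases, the stromelysins Mmp3 and Mmp10, macrophage elastase (Mmp12) and matrilysin (Mmp7). The cluster was otherwise nearly silent. Mmp27 had 583 counts in the 12 livers and the other 9 genes had 204 together, 4 of them with none (counts not scaled to gene length). Mmp12 had 2 to 8 counts per liver in WT, against 4 to 13 for SKO and 4 to 16 for DKO, and Mmp13, a main collagenase of the mouse, had at most 5 in any liver. None of these 9 genes had enough counts for the filter used with edgeR. DESeq2, run without that filter, called Mmp7 lower in SKO over WT (log2 -2.09, adjusted p = 0.0382) and in DKO over WT (log2 -2.84, adjusted p = 0.00742). Mmp8, which ends 2911 bases before Mmp27, had 12 counts in the WT livers (8, 4, 0 and 0), 3 in SKO and 1 in DKO.

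**Figure D4:**
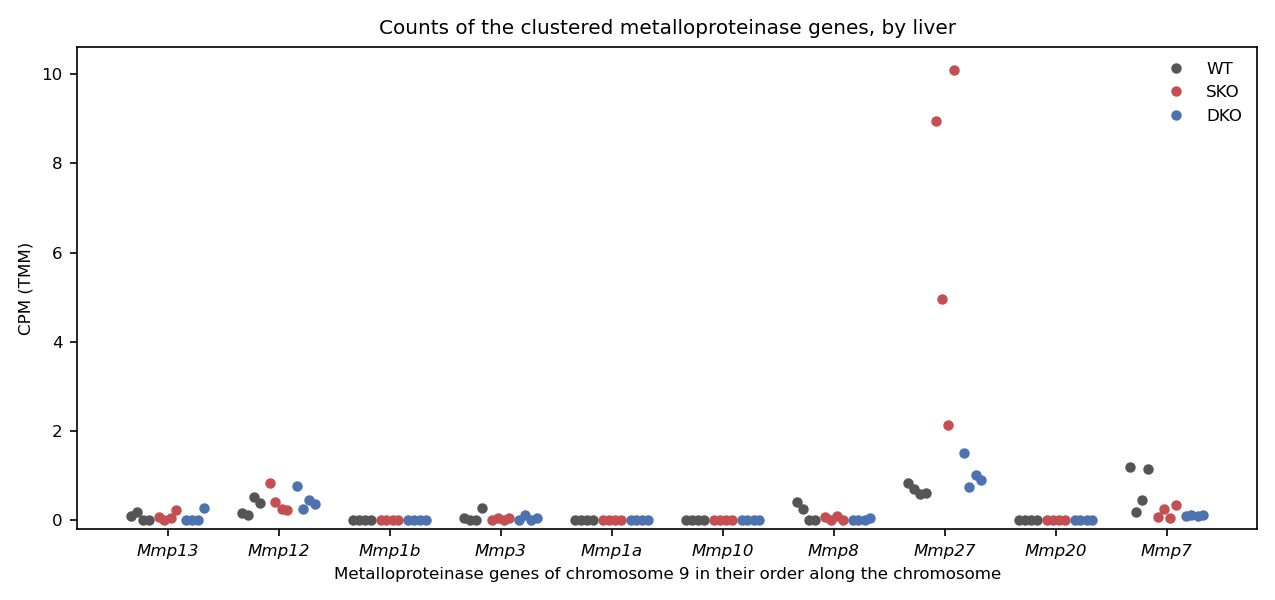
CPM in each liver (WT grey, SKO red, DKO blue) for the 10 metalloproteinase genes of the chromosome 9 cluster, in their order along the chromosome. Mmp27 in SKO livers, between 2.13 and 10.1 CPM, is the only gene and genotype above 2 CPM.

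The promoters of this cluster are shown because Mmp27 moved apart from its neighbours. Several of them are textbook targets of AP-1, the family of leucine zipper factors that includes Jun, Fos and ATF3. The sequences are the bases just before the annotated start of each gene (RefSeq, GRCm38.p6, plus strand, 5′ to 3′). Capitals mark TGANTCA, the AP-1 motif with any base allowed at N, and TATAAA, the TATA box. They cover chr9:7571146-7571395, chr9:7272414-7272513, chr9:7347274-7347373, chr9:7445722-7445821 and chr9:7502242-7502341, and the 4 neighbours were chosen after their values were seen. For Mmp12, which has 2 annotated starts, the window with the motif is printed.
Mmp27: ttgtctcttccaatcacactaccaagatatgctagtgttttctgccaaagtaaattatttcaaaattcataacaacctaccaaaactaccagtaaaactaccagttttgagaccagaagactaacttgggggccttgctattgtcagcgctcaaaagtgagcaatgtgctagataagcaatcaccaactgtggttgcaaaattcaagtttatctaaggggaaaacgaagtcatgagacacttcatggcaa
Mmp13: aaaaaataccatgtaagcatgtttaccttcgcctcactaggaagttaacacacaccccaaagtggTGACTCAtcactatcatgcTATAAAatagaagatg
Mmp12: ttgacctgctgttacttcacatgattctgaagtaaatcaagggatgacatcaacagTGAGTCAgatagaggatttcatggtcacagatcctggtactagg
Mmp3: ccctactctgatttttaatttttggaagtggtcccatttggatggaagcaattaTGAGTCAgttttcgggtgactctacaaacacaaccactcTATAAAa
Mmp10: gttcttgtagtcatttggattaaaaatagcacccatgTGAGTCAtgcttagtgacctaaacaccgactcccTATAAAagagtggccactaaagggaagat
Of all 32851 promoters (250 bases before to 50 after the start, both strands searched), 7.81% held TGANTCA and 13.6% held TATAAA. A promoter was on hand for 58 members, of which 9 held TGANTCA. These were Col6a1, Mmp3, Mmp7, Mmp10, Mmp12, Mmp13, Mmp1a, Mmp1b and Mmp20, so 8 of the 9 lay in the chromosome 9 cluster. The match of Mmp20 read TGAATCA, and all others read TGACTCA or TGAGTCA. Neither motif is in the Mmp27 window, which says only that these letters are absent there. The adjacent gene Mmp8 also lacked TGANTCA, though it held TATAAA on the minus strand. TGANTCA reads the same on both strands and matches are descriptions, not binding sites. Among AP-1 genes, 4 of 6 tested were higher in SKO over WT (Atf3, Jun, Jund and Fosl2), against 16.7% of all genes, and 1 of 6 in DKO over WT, against 6.06%. Without DKO replicate 4 the same 4 genes were higher of 7 tested, Atf3 included although it is targeted in DKO livers, with 35.9% of all genes called in either direction.

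The promoters of Col5a3 (chr9:20815068-20815317, minus strand) and Col27a1 (chr4:63215162-63215411, plus strand) are given as those of the members that fell most, in the same build and 5′ to 3′ on the strand of the gene, and they hold neither motif.
Col5a3: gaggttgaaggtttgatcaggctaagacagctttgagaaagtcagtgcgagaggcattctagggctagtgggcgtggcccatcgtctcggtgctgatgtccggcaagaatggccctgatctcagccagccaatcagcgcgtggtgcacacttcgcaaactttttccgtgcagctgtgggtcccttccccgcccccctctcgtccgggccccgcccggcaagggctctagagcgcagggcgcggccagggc
Col27a1: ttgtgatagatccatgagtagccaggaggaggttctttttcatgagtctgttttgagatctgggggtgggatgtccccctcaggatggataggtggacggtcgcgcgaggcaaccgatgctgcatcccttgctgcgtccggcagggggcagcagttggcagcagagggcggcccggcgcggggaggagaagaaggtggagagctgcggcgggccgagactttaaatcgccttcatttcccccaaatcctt
These 250 bases were 62.8% and 59.6% G or C, against 38.8% for Mmp27 and a median of 52.4% over all promoters. The windows of Mmp3, Mmp10 and Mmp13 were as poor in G and C as that of Mmp27, at 37.2 to 40.4%.

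Of the other metalloproteinases, 2 fell in SKO livers. Mmp15 is a membrane-anchored enzyme of the surface of epithelial cells (chr8:96078896-96101708, plus strand). It was at 36.0, 45.6, 36.7 and 41.4 CPM in WT livers, at 14.5, 7.67, 7.22 and 6.40 in SKO livers, and at 8.78, 11.0, 12.9 and 23.0 in DKO livers. Every KO liver was under every WT liver, and the highest of them were SKO replicate 1 and DKO replicate 4. Mmp15 fell to 0.223 of the WT level in SKO (log2 -2.17, SE 0.234, adjusted p = 4.75e-05). Mmp14, the best known membrane-anchored member and an activator of Mmp2, was at 41.6 to 48.5 CPM in WT and 40.3 to 70.1 in SKO livers and did not pass (log2 0.20, 95% CI -0.15 to 0.55, adjusted p = 0.377).

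Mmp19 (chr10:128626779-128636693, plus strand), the highest metalloproteinase per kb in WT livers, was at 49.8, 52.3, 54.9 and 52.8 CPM in WT livers, at 31.7, 15.3, 26.1 and 30.5 in SKO livers, and at 26.2, 32.3, 21.0 and 49.4 in DKO livers. Per kb, Mmp14 was above it in SKO livers on average (8.68 ± 2.15 against 7.34 ± 2.11 CPM per kb), within their spread. No SKO liver reached the WT range of Mmp19, whereas DKO replicate 4 came just under it. The SKO level was 0.493 of WT (log2 -1.02, SE 0.192, adjusted p = 0.00188). Mmp19 overlaps Tmem198b on the opposite strand, which had 975 counts in all livers against 7835. The gelatinases, which cut denatured collagen, were low. Mmp2 was at 0.550 to 1.20 CPM in WT and 0.898 to 1.82 in SKO livers (log2 0.68, 95% CI -0.11 to 1.46, adjusted p = 0.177), and Mmp9 had 3 to 25 counts per liver and was not tested.

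The main chains of scar fibrils, Col1a1, Col1a2 and Col3a1, did not pass the test in SKO livers. Col1a1 was at 2.96, 3.23, 1.24 and 3.85 CPM in WT and 2.53, 1.53, 2.18 and 2.86 in SKO livers (log2 -0.32, 95% CI -1.07 to 0.43, adjusted p = 0.524). Col1a2 was at 6.57 to 9.81 CPM in WT and 7.06 to 12.1 in SKO livers (log2 0.36, 95% CI -0.08 to 0.80, adjusted p = 0.194). Col3a1 was at 6.24 to 11.5 CPM in WT and 4.96 to 11.8 in SKO livers (log2 -0.31, 95% CI -0.94 to 0.31, adjusted p = 0.447). For these 3 chains the genotypes overlapped, and the intervals still allow rises of up to 0.80 on the log2 scale or falls of up to -1.07.

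Among the inhibitors, Timp2 and Timp3 were the ones expressed. Timp2 was at 10.9 to 13.5 CPM in WT, against 12.5 to 17.5 CPM for SKO and 11.0 to 22.4 for DKO (SKO over WT log2 0.28, 95% CI -0.05 to 0.61, adjusted p = 0.180). Timp3, which binds to the matrix, was at 9.73 to 23.8, 7.62 to 18.0 and 9.79 to 13.3 CPM in the same order (log2 -0.21, 95% CI -0.90 to 0.47, adjusted p = 0.650). Timp1, the inhibitor induced in injured liver, had 7 counts in the 12 livers together, at most 2 in any of them, and Timp4 also had 7. Timp1, Timp3 and Timp4 lie inside the synapsin genes Syn1, Syn3 and Syn2 on the opposite strand, which held 84, 207 and 36 counts.

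The lysyl oxidases were all low. Loxl2, which acts on basement membrane collagen, was at 2.44, 1.77, 1.37 and 1.10 CPM in WT and 2.79, 2.40, 2.34 and 3.76 in SKO livers (log2 0.74, 95% CI 0.07 to 1.41, adjusted p = 0.0862). WT replicate 1 overlapped the SKO livers and the others did not, and without it Loxl2 passed (log2 0.98, adjusted p = 0.0423). Loxl1, Loxl3 and Loxl4 had log2 fold changes of -0.23, 0.40 and 0.19 in SKO and none passed. Lox itself had 100 counts in the 12 livers and was too low to be tested against WT.

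**Figure D5:**
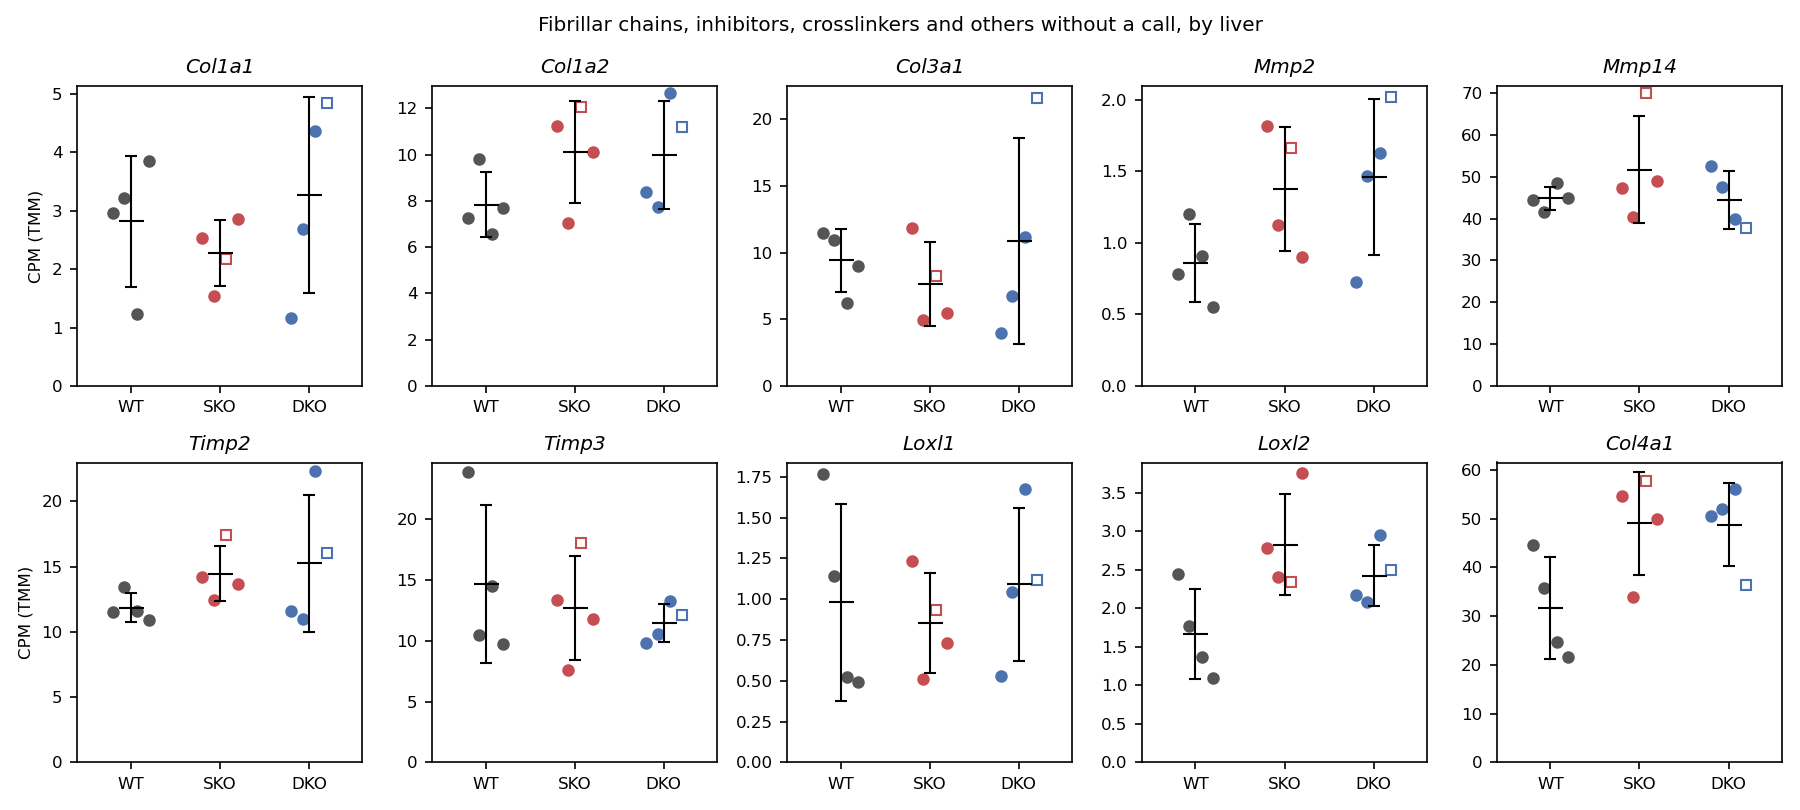
CPM in each liver for the main fibrillar chains, Mmp2, Mmp14, the expressed inhibitors, Loxl1, Loxl2 and Col4a1 (points are livers, bars mean and SD of 4 livers, open squares the livers with Xist counts). None of them passed edgeR's test in any comparison of all livers with the filter on low counts and no replicate block. The genotypes overlap in every panel, and DKO replicate 4 is the highest liver for Col3a1 at 21.6 CPM.

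DKO over WT used the WT livers of the comparison above, so both share their controls. Of 37 members tested, 1 was higher and 2 lower, or 8.11%, against 6.06% higher, 4.39% lower and 10.5% together over all 14448 genes tested. Another count, of members at an unadjusted p-value under 0.05, was 8, against 29.4% of all genes. The median log2 fold change of the members was 0.22, against 0.03 for all genes tested. Col12a1 rose 2.20-fold (log2 1.14, SE 0.304, adjusted p = 0.0441), Mmp15 fell to 0.353 (log2 -1.50, SE 0.269, adjusted p = 0.0147) and Col27a1 fell to 0.394 of WT (log2 -1.34, SE 0.339, adjusted p = 0.0376). Leaving out any liver but DKO replicate 4 ended the calls of both Col12a1 and Col27a1 (adjusted p = 0.0584 to 0.0994 for Col27a1), and leaving out WT replicate 2 or DKO replicate 3 ended that of Mmp15 too. Of the cell type markers, 1 of 8 for hepatocytes, 1 of 4 for bile duct cells and 1 of 6 for Kupffer cells were lower in DKO than WT, with median log2 fold changes of -0.34, -1.17 and -0.52. In the fit without DKO replicate 4, 4 of 8, 2 of 5 and all 6 were lower, where 35.9% of all genes were called in either direction. Lipid-associated macrophage markers had 2 of 6 higher in DKO than WT, macrophage markers of any origin 1 of 8 higher (2 higher and 5 lower without DKO replicate 4), and erythroid markers 1 of 5 lower. The part of these markers in the members' values was not tested. With single livers left out, the share of all genes called fell to 1.79%, 1.63%, 4.81% and 2.50% without WT replicates 1 to 4 in turn and to 2.73%, 2.54% and 1.95% without DKO replicates 1 to 3.

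Col5a3, Col18a1 and Mmp19 were also lower in every DKO liver than in any WT liver, which held for 5 members in all and 9.05% of all genes, but they missed the threshold (log2 -0.58, -0.48 and -0.69, adjusted p = 0.0692, 0.0877 and 0.0827). Among the higher members 1 did not overlap WT, Col12a1, against 7.72% of all genes, and 16.8% of all genes did not overlap in either direction. Mmp27 was at log2 0.62 (95% CI -0.10 to 1.35, adjusted p = 0.232). Col1a1, Col1a2 and Col3a1 were at log2 0.22, 0.37 and 0.22, Timp2 and Timp3 at 0.38 and -0.35, and Loxl2 at 0.55, and none of them passed. Without DKO replicate 4 the direction turned for Col3a1 (log2 -0.37, 95% CI -1.07 to 0.34) and Col1a1 (log2 -0.04, 95% CI -1.04 to 0.95), while Col1a2 was at 0.30, Timp2 and Timp3 at 0.35 and -0.39, Loxl2 at 0.52 and Mmp27 at 0.68, and again none passed.

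Without DKO replicate 4, 5 of 39 members tested were higher and 5 lower in DKO than WT, while the share of all genes called rose from 10.5% to 35.9%. The higher members were then Col12a1 (log2 1.29, adjusted p = 0.00525), Col4a1 (0.74, 0.0186), Col4a2 (0.63, 0.0178), Col11a2 (1.71, 0.00449) and Mmp24 (4.63, 0.000400). The lower ones were Mmp15 (-1.87, 6.21e-06), Mmp19 (-0.98, 0.000208), Col18a1 (-0.61, 0.00194), Col27a1 (-1.54, 0.00396) and Col5a3 (-0.52, 0.0442). Mmp24, which encodes a membrane-anchored enzyme of neurons, rests on few counts, with 1, 0, 0 and 1 in WT and 14, 13, 23 and 0 in DKO livers. It overlaps BC029722 on the opposite strand, which had 517 counts in WT and 1054 in DKO livers. DKO replicate 4 also had the highest summed markers of hepatocytes (93617 CPM, against 73864 to 91989 in WT) and, among DKO livers, of bile duct cells (32.0 CPM, against 9.74 to 19.0 in the others), Kupffer cells (303 CPM, against 77.2 to 134), macrophages of any origin (330.3 CPM, against 103 to 146), lymphocytes (7.40 CPM, against 1.93 to 2.39) and stellate cells (188 CPM, against 137 to 176). The part of these in its values was not tested.

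The direct comparison of DKO with SKO livers sets the double knockout beside the single one. Atf3 itself, counted over the whole gene, did not pass in it (log2 -1.91, adjusted p = 0.701). Of 41 members tested 0 passed with edgeR after the filter on low counts, against 0.0209% of all 14363 genes (0.00696% higher and 0.0139% lower), and 5 had an unadjusted p-value under 0.05, against 6.49% of all genes. The median log2 fold change was 0.11, against 0.01 for all genes. Col5a3 and Mmp27 came nearest. Col5a3 was higher in every DKO liver than in any SKO liver (log2 1.70, 95% CI 1.04 to 2.36, adjusted p = 0.182), which held for this member alone and for 2.08% of all genes. Mmp27 was lower in every DKO liver (log2 -2.61, 95% CI -3.65 to -1.56, adjusted p = 0.182), as was Col12a1 (log2 -0.92, 95% CI -1.49 to -0.34, adjusted p = 0.472), whereas 1.86% of all genes were lower without overlap and 3.94% did not overlap in either direction. In rank of p-value over all genes, Col5a3 was 13 and Mmp27 was 17.

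DESeq2 called Col5a3 (log2 1.68, adjusted p = 9.82e-05) and Mmp27 (log2 -2.64, adjusted p = 1.72e-05) in this comparison, where it called 0.306% of 28396 genes with a count. Without the filter on low counts, edgeR also called both, Col5a3 (log2 1.67, adjusted p = 0.00680) and Mmp27 (log2 -2.64, adjusted p = 0.00519), with 0.123% of all genes called. In edgeR without the pair of livers with Xist counts, Mmp27 passed (log2 -2.85, adjusted p = 0.00960) and Col5a3 did not, with 0.146% of all genes called. Leaving out any single liver in edgeR left both above the threshold. The other calls from SKO over WT had log2 values of 0.88 for Col27a1, 0.67 for Mmp15, 0.47 for Col18a1, 0.34 for Mmp19 and -0.26 for Col4a2 in DKO over SKO, and none passed (adjusted p = 0.701 to 0.916). Without DKO replicate 4 these values were 0.68, 0.30, 0.32, 0.04 and -0.09 in the same order, those of Col5a3, Mmp27 and Col12a1 were 1.75, -2.55 and -0.77, and again none passed (adjusted p = 0.0788 for Col5a3 and 0.131 for Mmp27).

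Lists of related genes are read against the 16.7% of all genes that were higher and the 15.4% that were lower in SKO over WT (32.1% together), and against 10.5% together in DKO over WT. Of 22 genes that make, fold and cut collagen, 6 were higher and 3 lower in SKO livers and 13 did not pass, with a median log2 fold change of 0.24 against 0.03 for all genes. P3h4, a partner of the enzymes that modify lysine in procollagen, rose from 0.870 ± 0.489 to 7.37 ± 3.60 CPM (SD, n = 4; log2 3.09, adjusted p = 0.000306). P4ha2, a subunit of prolyl 4-hydroxylase, rose from 5.01 ± 2.07 to 14.4 ± 3.38 CPM (log2 1.52, adjusted p = 0.00153). Bmp1, the protease that removes the procollagen C-propeptide, fell from 218 ± 31.9 to 125 ± 11.9 CPM (log2 -0.81, adjusted p = 0.000947), and the isomerase Ppib fell too (log2 -0.68, adjusted p = 0.00216). In DKO over WT 2 were higher (P3h4 and Fkbp14) and 1 lower (Bmp1), or 5 and 3 without DKO replicate 4, where 35.9% of all genes were called.

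Among 32 other matrix genes tested in SKO over WT, 5 were higher and 4 lower, a share under the 32.1% of all genes. Lamb3, a laminin chain of epithelial basement membranes, rose from 12.0 ± 2.07 to 149 ± 79.1 CPM (log2 3.63, adjusted p = 1.85e-05), and it was at 53.4 ± 33.5 CPM in DKO livers. The plasma matrix proteins of hepatocytes fell, namely Fn1 (fibronectin, log2 -1.41, adjusted p = 0.000223) and Vtn (vitronectin, log2 -1.01, adjusted p = 0.000297). Lama3, another laminin chain, was at log2 -1.74 (adjusted p = 0.00219). In DKO over WT, Lamb3 was higher and Fn1 lower (1 each of 32). Without DKO replicate 4, 4 were higher and 2 lower of 33, under the 35.9% of all genes called in that fit.

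Of 13 receptors and uptake genes tested, 3 were higher and 0 lower in SKO, again under the 32.1% of all genes, namely the collagen receptors Itga2 (log2 1.49, adjusted p = 0.00394) and Ddr1 (log2 1.29, adjusted p = 0.00773) and the lysosomal protease Ctsl (log2 0.83, adjusted p = 0.0156). In a list of metalloproteinase regulators and the plasminogen system, which activates several metalloproteinases, 2 of 12 were higher and 4 lower, against 16.7% and 15.4% of all genes. Plg, plasminogen itself, fell (log2 -1.85, adjusted p = 0.000161), as did Serpinf2, the inhibitor of plasmin (log2 -2.55, adjusted p = 1.75e-06). Neither list had a call in DKO over WT with all livers. The fit without DKO replicate 4 was added for these lists after their values were seen. There, 3 of 13 receptor and uptake genes were higher (Itga2, Ddr1 and Ctsl) and 3 lower. In that fit 35.9% of all genes were called in either direction. Of 12 genes of the list that joins metalloproteinase regulators and the plasminogen system, 5 were lower, among them Plg, Serpinf2 and the regulators Bsg and Lcn2. The summed level of the latter list was 3713 CPM in DKO replicate 4 and 1393 to 1903 in the other DKO livers, against 3380 to 3989 in WT and 1259 to 1725 in SKO livers.

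In the TGF-beta and PDGF pathways, which drive collagen genes in stellate cells, 5 of 21 tested genes were higher and 1 lower in SKO livers, against 32.1% of all genes together. Tgfbr2, a TGF-beta receptor, rose (log2 0.93, adjusted p = 0.00325), as did Pdgfa (log2 1.17, adjusted p = 0.00733) and Ccn2, a TGF-beta target (log2 1.29, adjusted p = 0.0212), while the signal transducer Smad3 was lower (log2 -0.75, adjusted p = 0.00248). In DKO over WT 1 was higher (Tgfb3) and 0 lower, against 6 and 1 without DKO replicate 4, where 35.9% of all genes were called. In DKO over SKO none of the genes of these 5 lists passed.

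Markers of the cells that make fibrillar collagen were measured beside these values. Of 10 stellate cell markers 0 passed in any comparison, and their summed level was 116 to 136 CPM in WT, against 138 to 194 CPM for SKO and 137 to 188 for DKO. Activated myofibroblast markers summed to 11.9 to 16.3 CPM in WT, against 13.3 to 29.9 CPM for SKO and 12.0 to 18.2 for DKO, with 0 of 6 called in SKO over WT, and the defining Acta2 was at 0.325 to 5.44 CPM in WT and 1.17 to 2.39 in SKO livers. Endothelial markers, of cells that make basement membrane collagen, had 0 of 8 called, with sums of 175 to 392 CPM in WT and 237 to 314 in SKO livers. Markers of lipid-associated macrophages were 3 higher and 1 lower of 6 tested in SKO, against 16.7% and 15.4% of all genes, with sums of 36.3 to 44.1 CPM in WT and 69.6 to 118 in SKO livers. Of the macrophage markers of any origin 2 of 8 were higher (Cd68 and Cd14), and of the erythroid markers 2 were higher and 1 lower of 5, with a median log2 fold change of 1.12. The part of these lists in the values of Mmp27, Col12a1 and the other members was not tested.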

How the data were processed

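Whole-liver RNA (TRIzol, then RNeasy) was sequenced by Novogene. For 12 livers the authors deposited unnormalized read counts by gene beside FPKM values, which are scaled to gene length and depth. The submitters' processing notes name HISAT2, GRCm38 and mm10. The count table names no build, and 1524 of 52125 shared genes had the start and end of the GRCm38 annotation (GENCODE M21), so its gene coordinates were printed as given and not joined to sequence. The counting program is not given in the sources used here. Deposited tables of the authors' own fold changes and p-values were not used.

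Each pair of genotypes was fitted over all genes with edgeR 4.0.16 in R 4.3.3 (TMM within the 8 livers, filterByExpr, quasi-likelihood test, two-sided, Benjamini-Hochberg, threshold 0.05), after the code was tested on simulated data. The standard error was the absolute log2 fold change over the square root of F. CPM were TMM-scaled over the 12 livers. FPKM were used only to check the order of levels. Total counts were 14710304 to 20030055 per liver, and no pair of replicates agreed within sampling noise (smallest chi-square per degree of freedom 18.5). Values were given for members past the threshold in any comparison, the 3 smallest p-values of DKO over SKO, a fixed set of fibrosis genes, and genes among the 4 smallest p-values of each pathway list, of which 1 is not reported here. Mmp3, Mmp7, Mmp8, Mmp10, Mmp24, Col4a3, Col4a4, Col5a1, Col5a2, Col6a1, Col6a6, Col11a2, Col13a1, Col14a1, Col16a1 and Col20a1 were named after their values were seen. Members, lists and settings were chosen with earlier results of these data known. Alternatives were DESeq2 1.42.0, RLE scaling, other filters, all 12 livers in 1 fit, the replicate number as a block, and left-out livers. Promoter windows came from RefSeq (GRCm38.p6). Col12a1 and Mmp19 had no window.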

Additional observations from a re-analysis of the deposited data

Results flagged for a closer look

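In 83 sets of 4 livers (28 members by genotype, sets without spread left out), 5 held a liver whose gap to its nearest neighbour exceeded Dixon's 95% limit for 4 values. Chance gives about 1 in 20, or 4.15 of 83. Col5a3 was 39.9 CPM in WT replicate 2, against 26.2 to 28.2 in the other WT livers. Mmp15 was 14.5 CPM in SKO replicate 1, against 6.40 to 7.67 in the others. Col4a2 was 26.0 CPM in DKO replicate 4, against 46.6 to 50.2 in the others. Mmp13 was 0.266 CPM (5 counts) in DKO replicate 4 and 0 in the other DKO livers. Timp1 was 0.112 CPM (2 counts) in SKO replicate 4 and 0 in the other SKO livers.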

How the results depend on the processing

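In SKO over WT, the 5 lower members were 5 to 6 under all 14 distinct alternatives, and Col12a1 and Mmp27 passed under each of them. The 3 higher members became 5 with DESeq2 (4920 genes or 17.6% called) and 6 without a filter on low counts (4803 or 17.2%). Both shares are over 27924 genes with a count, whereas the reported fit called 4576 or 32.1% of 14261 filtered genes. The higher members were 5 without the liver with Xist counts, which is SKO replicate 3 (32.5%), and 2 to 6 with single livers left out (6 without WT replicate 1, 25.7%). In DKO over WT, the 1 higher member became 3 with DESeq2 (8.79% called) and 3 without a filter (5.88%). Both shares are over 28551 genes with a count, against 10.5% of 14448 filtered genes in the reported fit. The higher members were 2 with all 12 livers in 1 fit (11.6%) and 5 without the liver with Xist counts, which is DKO replicate 4 (35.9%). The 2 lower members became 6 with DESeq2 and 5 without the liver with Xist counts. With single livers left out, both counts ran from 0 to 5. Leaving out DKO replicate 4, an alternative chosen after the data were seen for the pathway lists, the genes higher and lower in DKO over WT went from 2 and 1 to 5 and 3 for collagen biosynthesis, from 1 and 1 to 4 and 2 for other matrix genes, from 0 and 0 to 3 and 3 for receptors and uptake, from 0 and 0 to 0 and 5 for metalloproteinase regulators and the plasminogen system, and from 1 and 0 to 6 and 1 for TGF-beta and PDGF. In DKO over SKO, DESeq2 and the fit without a filter each gave 1 higher and 1 lower member (0.306% and 0.123% of 28396 genes with a count). Leaving out both livers with Xist counts gave 1 lower (0.146%), and single livers left out gave 0 to 0. The causes were not tested. Over the 8 members called in SKO over WT, each in all 3 comparisons, 311 values kept their direction and side of the threshold, 12 passed only under the alternative, 20 only as reported, and none changed sign. Without DKO replicate 4, among the other members, Col1a1, Col3a1, Col6a1, Col14a1, Col16a1, Mmp14 and Mmp23 changed sign in DKO over WT, and Col1a2, Col3a1, Col16a1, Lox, Mmp2 and Mmp23 in DKO over SKO, with no call either way.

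Same-numbered livers did not deviate together (correlations of deviations from the group means -0.419 to 0.151), and the numbers were not used as a pairing in the fits reported above. Such correlations cannot show whether same-numbered livers shared a litter or were handled together. With the replicate block, 0 members were higher and 2 lower in DKO over WT, with 4.78% of all genes called, against 10.5% without it, and Col4a1 passed in SKO over WT (adjusted p = 0.0493). By FPKM, 14 members reached 1 per kb in WT, against 13 by CPM per kb. Counts limited what could be tested, as 28 members had reads but were kept by the edgeR filter in no comparison of all livers.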

Other observations

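Several members had too few reads for the filter and still differed between genotypes in DESeq2 or without a filter. Mmp7, matrilysin, which bile duct cells make among others, had 23, 3, 7 and 21 counts in WT, 1, 5, 1 and 6 in SKO, and 2 in each DKO liver. DESeq2 gave log2 -2.09 in SKO over WT (adjusted p = 0.0382) and -2.84 in DKO over WT (adjusted p = 0.00742). Mmp24 had 3, 14, 10 and 11 counts in SKO livers against 1, 0, 0 and 1 in WT, and DESeq2 gave log2 4.14 (adjusted p = 0.00509).

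Col11a2, a fibrillar chain of cartilage, was at 0.416, 0.949, 1.30 and 1.48 CPM in WT livers, at 1.75, 3.94, 1.20 and 1.96 in SKO livers, and at 3.42, 2.82, 3.86 and 1.28 in DKO livers. It missed the threshold in SKO over WT (log2 1.10, adjusted p = 0.0843) and in DKO over WT (log2 1.47, adjusted p = 0.0617). It passed in SKO over WT without SKO replicate 3, the liver with Xist counts (log2 1.31, adjusted p = 0.0415), and without a filter (adjusted p = 0.0495), and in DKO over WT without DKO replicate 4 (adjusted p = 0.00449), without a filter (adjusted p = 0.0493) and with DESeq2 (adjusted p = 0.0167). Col6a6 passed in SKO over WT without the livers with Xist counts (log2 1.65, adjusted p = 0.0233), and Col13a1 passed without WT replicate 1 (log2 0.86, adjusted p = 0.00380), whose 227 counts compare with 86 to 99 in the other WT livers. Col4a3 and Col4a4, another head-to-head pair of basement membrane chains with starts 72 bases apart, had 147 and 137 counts in the 12 livers and passed in no comparison.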
